A study of Yarrowia lipolytica with 3 samples.

Results

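The low-number chromosome ends of the yeast Yarrowia lipolytica are described here through 220 genes among the 6448 gene identifiers of the data set. Each identifier carries a letter from A to F for 1 of 6 chromosomes, and a number that runs along that chromosome. Genes with a number below 1000 were taken, which gave 35 on chromosome A, 35 on B, 36 on C, 39 on D, 37 on E and 38 on F, after 5 identifiers in that range were left out by the same rule. The first number was 110 on every chromosome and the commonest step between neighbours was 22. The rule reads the identifier alone. The number gives an order, not a distance in bases, and the distance to the telomere was not analysed here. The remaining 6223 genes served for comparison, among them 257 genes at the high-number ends, within 1000 of the last identifier of their chromosome.

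Yeast chromosomes end in telomeric repeats, and the stretch next to them, the subtelomere, is known for fast change in gene content. In Saccharomyces cerevisiae genes placed close to a telomere can be silenced by the Sir protein complex, and many subtelomeric genes there belong to families of similar copies, such as those for cell-surface flocculins and sugar use. Mhy1, the factor changed in these strains, is a C2H2 zinc-finger transcription factor of Yarrowia lipolytica known for its part in the switch to hyphal growth. The files pair no identifier with a gene name, and 0 of the identifiers matched the annotation of the reference at hand, so genes are given by identifier and position, without a function.

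RNA was sequenced from 1 culture each of an mhy1Δ strain, an MHY1-overexpressing strain and the wild-type strain, all listed with PO1a as their source. Each culture was grown at 30 °C in YNDC7 medium with uracil to an OD600 of 0.8. Neither the promoter behind the overexpression nor the number of clones is stated in the labels used here. Levels are in RPKM, reads scaled to gene length and to library size, and the low values implied totals of 59527000 reads for deletion, 75306802 for overexpression and 47622181 for wild type. MHY1 (YALI0B21582g), which lies outside both ends of chromosome B, followed the labels. It was listed at 0 in the deletion library, where a count of 0 allows up to 3 reads or 0.0587 RPKM, at 1159 RPKM in overexpression and at 467 RPKM in wild type. With 1 library per strain there is no replicate spread and no test, and all intervals cover counting error only. In bulk RNA, fewer cells that express a gene and less RNA per cell cannot be told apart.

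In all 3 strains the typical low-number end gene was expressed much like the typical gene elsewhere, while the weak end of the range reached lower. The median member had 25.3 RPKM in deletion, 31.6 in overexpression and 29.9 in wild type, where all other genes had medians of 27.6, 33.6 and 30.0 RPKM. On the log2(RPKM + 1) scale the members' median minus that of the others was −0.12 in deletion, −0.09 in overexpression and −0.01 in wild type. The lower quartile of members was 4.998 RPKM in deletion, 10.9 in overexpression and 7.15 in wild type, below the 8.73, 12.1 and 10.1 RPKM of other genes. The upper quartile of members, at 96.9, 98.7 and 99.95 RPKM in the same order, lay above the 83.3, 94.0 and 86.4 RPKM of other genes. Members were thus spread more widely around a similar middle. That similarity depended on the limit of 1000. Below number 500 the medians were 19.5, 23.7 and 23.6 RPKM in the same order, and below 2000 they were 22.9, 28.1 and 25.5 RPKM. All of these lay under the medians of other genes given above.

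Genes under 1 RPKM were more common among the members. They were 34 of 220 members in deletion (15.5%), 22 of 220 in overexpression and 30 of 220 in wild type (13.6%). Of other genes 11.1% were under 1 RPKM in deletion, 6.83% in overexpression and 9.16% in wild type. The high-number ends did not share this, with 9.34%, 6.23% and 7.004%. In every library 22 of 220 members stayed under 1 RPKM, where 6.28% of other genes and 4.67% of high-number end genes did. Of these 22 members, 3 had no read at all (1.36% of members), where 0.852% of other genes had none. A count of 3 is too small to set the members apart. By chromosome the 22 members numbered 4 on A, 6 on B, 5 on C, 3 on D, 2 on E and 2 on F. The matching split of other genes by chromosome is not given here. These 22 members enter no ratio below, which leaves 198 of 220 compared. Of the 198, 7 reached 1 RPKM in the overexpression library alone, and 0 did so in the deletion or the wild-type library alone. These 7 entered through their overexpression value, and the counts of members higher in overexpression below include them where they pass 2-fold. The share of such genes among other genes is not given here.

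**Figure D1:**
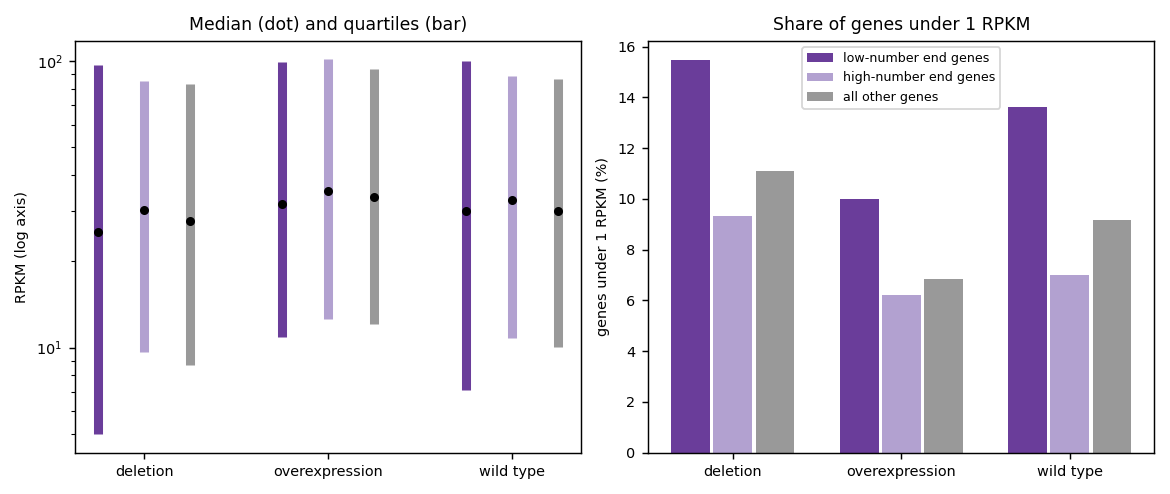
Left, median (dot) and quartiles (bar) of RPKM on a log axis; right, the share of genes under 1 RPKM, for low-number end genes (220), high-number end genes (257) and all other genes (6223, which include the high-number ends) in the deletion, overexpression and wild-type libraries. Medians lie close together, while the low-number ends have the lowest lower quartile and the largest share under 1 RPKM in each library.

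Among strong genes, 7 members in deletion (3.18%), 10 in overexpression (4.55%) and 7 in wild type (3.18%) were at 1000 RPKM or more. Of other genes 3.55% were in deletion, 3.23% in overexpression and 3.36% in wild type. With counts this small, members are not read as different from other genes here. The 10 strongest members held 54.1%, 51.6% and 52.2% of the members' summed RPKM. YALI0E00550g had the highest mean level, at 3368 RPKM in deletion, 3067 in overexpression and 3275 in wild type. YALI0A00132g, the second identifier of chromosome A, came next, at 2467, 2262 and 2580 RPKM. Both were close to flat over the strains. All members together took 3.74% of the reads in deletion (95% interval 3.74 to 3.75), 4.34% in overexpression (4.33 to 4.34) and 3.94% in wild type (3.93 to 3.94). The intervals are exact binomial ones for the reads of these single libraries, cover counting error only and say nothing of the spread between cultures, so a difference between strains in this share cannot be judged.

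Levels differed between the 6 ends. In wild type the median was 41.4 RPKM on chromosome E, 38.1 on D, 25.5 on A, 24.7 on F, 23.6 on B and 21.2 on C. The other genes of the same chromosomes had medians of 31 RPKM on E, 32.0 on D, 17.2 on A, 34.3 on F, 35.8 on B and 25.2 on C. In wild type the ends of E, D and A therefore had a higher median than the rest of their own chromosome, and those of F, B and C a lower one. This did not hold in every library. The end of A had a median of 14.3 RPKM in deletion, below the 15.7 RPKM of its other genes. The end of C had 29.8 RPKM in overexpression, above the 28.3 RPKM of its other genes. The ends of B, D, E and F kept their side in all 3 libraries. Chromosome A stood apart as a whole, since 20.1% of its other genes were under 1 RPKM in wild type, against 17.1% of its low-number end genes. On B the order was the other way, with 7 of 35 genes at the end and 7.23% elsewhere.

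Along the numbers, medians were lower below 400 than above. Members numbered below 400 had a median of 18 RPKM in deletion, 23.7 in overexpression and 19.2 in wild type (74 genes). Those numbered 400 and above had 35.3, 36.6 and 34.2 RPKM (146 genes). For numbers below 200 the median was 15.1 RPKM in deletion, 24.7 in overexpression and 23.6 in wild type, and for the next 200 it was 18.6, 20.9 and 16.5 RPKM, so the lowest stretch was the first in deletion and the second in overexpression and wild type. Without chromosome A, the 22 genes numbered below 200 had medians of 21.5, 24.2 and 23.6 RPKM. The low deletion median of the first stretch thus leaned on the 5 genes of chromosome A. The share under 1 RPKM was 20.3%, 10.8% and 17.6% below 400 and 13.01%, 9.59% and 11.6% from 400 on. At the limit of 1000, the last member of each chromosome had from 0.04 to 231 RPKM in wild type (median 71.0), and the first gene past the limit from 0.22 to 34.3 RPKM (median 17.9). Recovered gene lengths were somewhat greater at the low-number ends, with a median of 1290 bases over 217 members and 1140 bases over 6170 other genes. RPKM already divides by length.

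**Figure D2:**
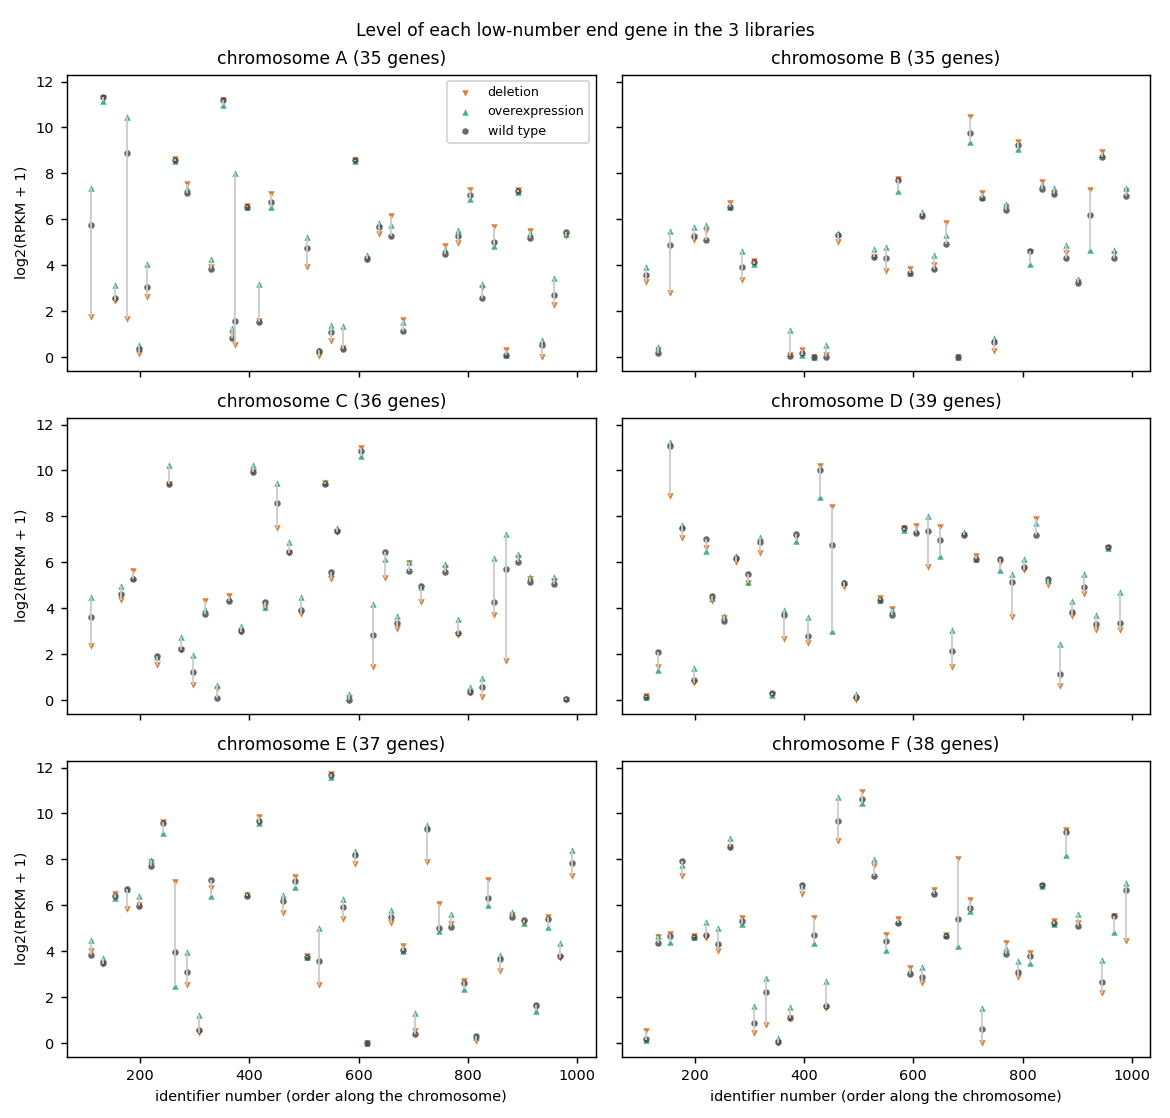
log2(RPKM + 1) of each of the 220 low-number end genes against its identifier number, 1 panel per chromosome, with the deletion (down triangle), overexpression (up triangle) and wild-type (circle) values joined by a grey line. Most genes have short lines; the long ones include 3 genes of chromosome A with numbers below 400.

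The comparison of the deletion with wild type asks which of these transcripts depend on MHY1. Of the 198 members compared, 17 had a level at least 2-fold lower without MHY1, which is 8.59%, where 5.83% of all genes compared were. A further 5 members were at least 2-fold higher (2.53%), where 1.66% of all genes were, and 176 were within 2-fold. Calls were made on log2((x + 1)/(y + 1)). The members' median log2 ratio was −0.01 and that of other genes −0.03, both close to 0. At 4-fold, 6 members were lower (3.03%, against 1.31% of all genes) and 2 were higher (1.01%, against 0.282%). At the high-number ends 4.49% of genes were at least 2-fold lower and 3.27% at least 2-fold higher.

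The lowest ratios belonged to a pair of genes near the start of chromosome A. YALI0A00176g was at 2.15 RPKM in deletion, 1383 in overexpression and 465 in wild type. It was 216-fold lower in deletion than in wild type (interval 194 to 242). YALI0A00110g, the first identifier of chromosome A, was at 2.32 RPKM in deletion, 166 in overexpression and 52.9 in wild type, 22.9-fold lower in deletion (20.6 to 25.5). Between them sits YALI0A00132g, whose level was 1.05-fold lower in deletion than in wild type (1.04 to 1.05). The pair was nearly silent without MHY1, while the strong gene lying between them was almost level.

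The other 4 members that were at least 4-fold lower lay on 4 further chromosomes. The gene after YALI0C00847g on chromosome C was at 2.25 RPKM in deletion and 50.8 in wild type, 22.6-fold lower (19.7 to 26). The last member of chromosome F was at 21.0 and 99.9 RPKM, 4.76-fold lower. A strongly expressed gene of chromosome D, numbered below 200, was at 474 RPKM in deletion, 2411 in overexpression and 2154 in wild type. On chromosome B a gene numbered below 200 was at 5.94 RPKM in deletion, 43.8 in overexpression and 28.5 in wild type. These 4 genes were singled out after their values were seen.

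Upward in the deletion, YALI0E00264g was at 130 RPKM in deletion, 4.58 in overexpression and 14.6 in wild type. It was 8.90-fold higher in deletion than in wild type (8.36 to 9.48). YALI0F00682g was at 255 RPKM in deletion, 17.6 in overexpression and 40.8 in wild type, 6.25-fold higher in deletion (5.92 to 6.61). The other 3 higher members were YALI0D00451g, 3.12-fold, YALI0B00924g, 2.14-fold, and a second gene of chromosome E, 2.12-fold higher. In none of these 5 genes did the overexpression level exceed that of wild type. How often this held among all genes at least 2-fold higher in deletion was not counted, so it is not read as particular to these 5.

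By position, genes lower in the deletion were most frequent in the first 200 numbers. There 5 of 23 genes compared were at least 2-fold lower (21.7%), where 5.83% of all genes compared were. None was higher, where 1.66% of all genes were, and 4 of the 23 were at least 4-fold lower (17.4%, against 1.31%). The 5 were the 2 genes of chromosome A, those of B and D given above, and the first identifier of chromosome C, at 4.17 RPKM in deletion and 11.3 in wild type. The next stretches had 6.98% for numbers from 200, 4.76% from 400, 11.4% from 600 and 4.35% from 800, in steps of 200. The median log2 ratio was −0.19 in the first stretch, −0.04 in the second, 0.00 in the third, 0.11 in the fourth and 0.02 in the last. Without chromosome A, 3 of 19 genes numbered below 200 were at least 2-fold lower (15.8%). The 23 genes are few, and these first 200 numbers were looked at among 5 position groups.

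**Figure D3:**
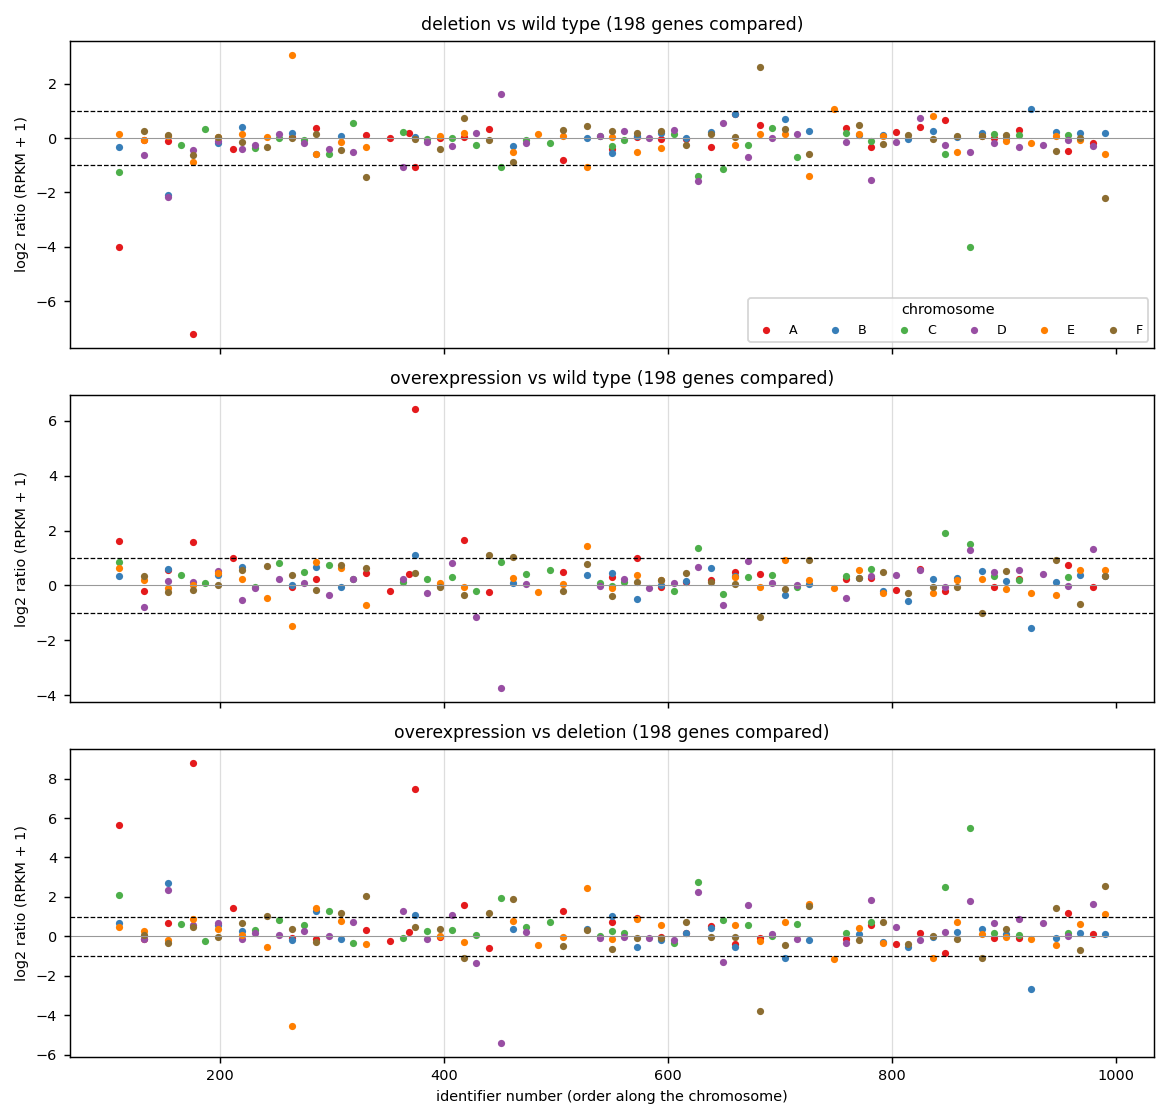
log2 ratio of RPKM + 1 for the 198 low-number end genes compared, against identifier number, for deletion vs wild type, overexpression vs wild type and overexpression vs deletion; colours mark chromosomes and dashed lines mark 2-fold. In the top panel 5 of the 23 genes numbered below 200 lie under the lower line.

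By chromosome, on C 5 of 31 genes had levels in deletion at least 2-fold below wild type (16.1%), on D 4 of 36 (11.1%), on A 3 of 31 (9.68%), on E 2 of 35 (5.71%), on F 2 of 36 (5.56%) and on B 1 of 29 (3.45%). The rest of chromosome C also had the highest share among the 6 chromosomes, at 7.51%. On A and C no member was at least 2-fold higher, where 1.66% of all genes compared were. At that share a count of none among 31 genes says little. A larger share of lower genes than elsewhere was not seen among weak members. Among members with a mean under 10 RPKM 5.26% were lower, against 6.68% of other genes of that level. Between 10 and 100 RPKM the shares were 9.43% and 6.09%, and above 100 RPKM 9.26% and 4.22%.

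**Figure D4:**
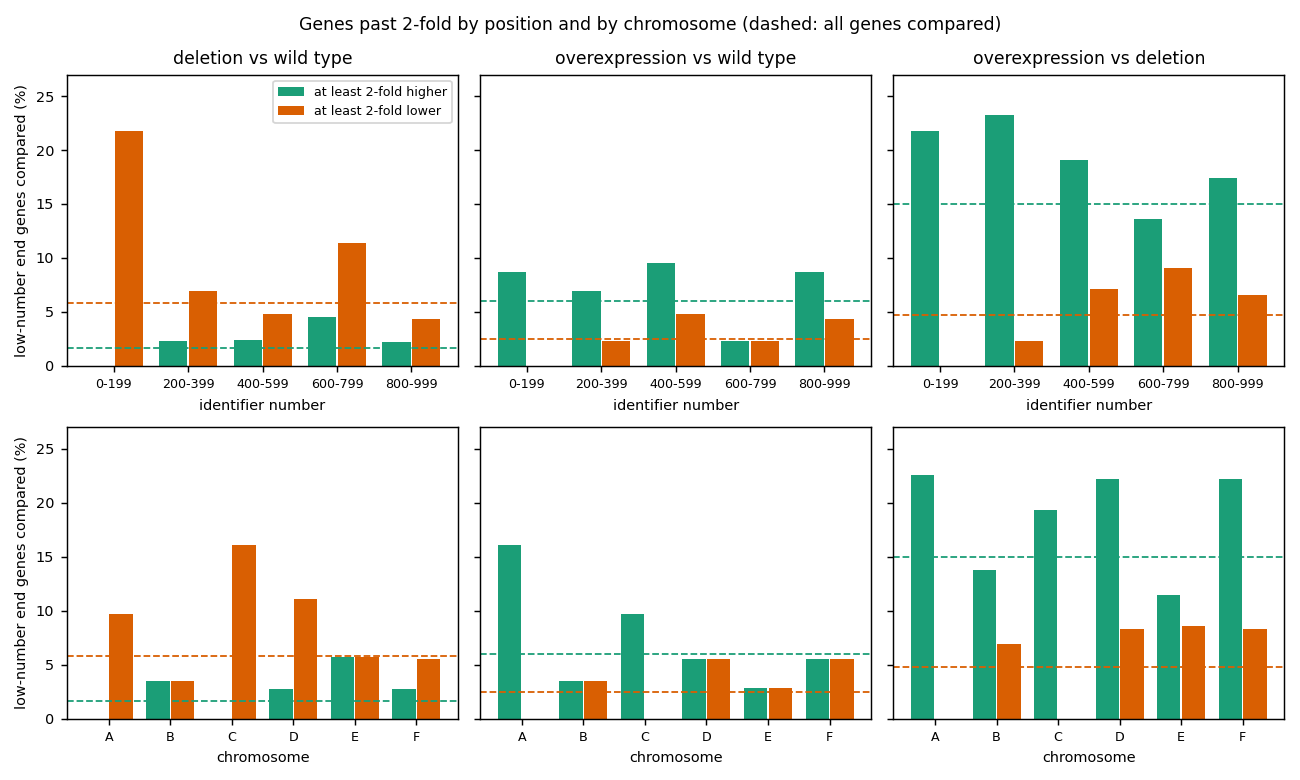
Share of low-number end genes compared that were at least 2-fold higher (green) or lower (orange), by stretch of identifier numbers (top) and by chromosome (bottom), for the 3 comparisons; dashed lines give the shares over all 6035 genes compared. The tallest orange bar is that of numbers below 200 in deletion vs wild type, 21.7%.

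The comparison of overexpression with wild type asks which of these transcripts respond to extra MHY1. At least 2-fold higher were 14 of 198 members (7.07%), where 5.98% of all genes compared were, and 6 were at least 2-fold lower (3.03%), where 2.47% were. Both shares lay near those of all genes. The members' median log2 ratio was 0.23 and that of other genes 0.16, so most genes on both sides lay somewhat above 0. After centring on the median of all genes, which was 0.16, 10 members were higher (5.05%), where 4.16% of all genes were, and 6 were lower (3.03%), where 3.12% were. The share of lower members passed to the other side of that of all genes. At 4-fold, 1 member was higher (0.505%) and 1 lower (0.505%), where 0.845% and 0.646% of all genes were.

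The single member past 4-fold upward was YALI0A00374g, at 0.45 RPKM in deletion, 259 in overexpression and 2.01 in wild type. Overexpression was 129-fold above wild type (104 to 162), from 16737 reads in overexpression and 82 in wild type. YALI0C00847g was at 11.9 RPKM in deletion, 72.6 in overexpression and 18.4 in wild type, 3.95-fold higher in overexpression (3.73 to 4.19). YALI0A00176g and YALI0A00110g were 2.97-fold (2.94 to 2.999) and 3.13-fold (3.05 to 3.22) higher. Chromosome A supplied 5 of the 14 higher members, from 31 genes compared (16.1%), and all 5 had numbers below 500. Without chromosome A, 9 of 167 members were higher (5.39%), against 5.81% of other genes without that chromosome. Chromosome C supplied 3, D and F 2 each, and B and E 1 each.

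Downward, YALI0D00451g was at 337 RPKM in deletion, 7.07 in overexpression and 108 in wild type. It was 15.3-fold lower in overexpression than in wild type (14.3 to 16.3). YALI0B00924g was at 155 RPKM in deletion, 24.0 in overexpression and 72.6 in wild type, 3.03-fold lower in overexpression (2.79 to 3.29). YALI0E00264g was 3.19-fold lower (2.87 to 3.54) on plain RPKM, and YALI0F00682g 2.31-fold lower (2.13 to 2.51). The gene just before YALI0D00451g, at 464 RPKM in overexpression and 1024 in wild type, and 1 gene of chromosome F, at 288 and 586 RPKM, made up the 6. None of the 23 genes compared with numbers below 200 was at least 2-fold lower, where 2.47% of all genes compared were. At that share a count of none among 23 genes says little.

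Overexpression set against deletion compares the libraries with the highest and the lowest MHY1 RNA level. It uses no wild-type library, although it shares its libraries with both comparisons above. At least 2-fold higher in overexpression were 37 of 198 members (18.7%), where 15.0% of all genes compared were, and 11 were at least 2-fold lower (5.56%), where 4.74% were. The median log2 ratio was 0.18 for members and 0.20 for other genes. After centring on the median of all genes, 30 members were higher (15.2%), where 11.3% of all genes were, and 12 were lower (6.06%), where 6.40% were. The share of lower members was thus above that of all genes before centring and below it after. At 4-fold, 13 members were higher (6.57%), where 4.46% of all genes were, and 4 were lower (2.02%), where 1.54% were.

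YALI0A00176g was 642-fold higher in overexpression than in deletion (576 to 718), and YALI0A00374g 575-fold higher (383 to 908). The ratio of YALI0A00374g rests on 23 reads in the deletion library. YALI0A00110g was 71.6-fold higher (64.6 to 79.7). YALI0D00451g was 47.6-fold lower in overexpression than in deletion (44.6 to 50.9), and YALI0E00264g 28.4-fold lower (26 to 31). In the first 200 numbers 5 of 23 genes were at least 2-fold higher (21.7%), where 15.0% of all genes compared were. All 5 were also past 4-fold, where 4.46% of all genes were. None was lower, where 4.74% of all genes were. The 5 higher genes are the same 5 as those lower in the deletion against wild type there, a count that both comparisons take in part from the deletion library. Further in, the share at least 2-fold higher was 23.3% for numbers from 200, 19.05% from 400, 13.6% from 600 and 17.4% from 800.

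Neighbouring members were both past 2-fold in few pairs. Of 172 pairs of neighbouring members with both genes compared, 1 had both genes at least 2-fold different in the same direction in deletion against wild type (0.581%), against 0.653% of 5516 pairs of other genes. In overexpression against wild type 3 pairs were alike (1.74%, against 0.816%), and in overexpression against deletion 4 pairs (2.33%, against 3.41%). Opposite directions were found in 1 member pair in deletion against wild type (0.581%, against 0.181%), in none in overexpression against wild type (against 0.163%), and in 6 pairs in overexpression against deletion (3.49%, against 1.20% of other pairs). YALI0C00847g and the gene after it formed an upward pair, with overexpression 3.95-fold and 2.91-fold above wild type. YALI0D00451g and the gene before it formed a downward one, 15.3-fold and 2.21-fold lower.

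Cutting every chromosome into windows of 1000 numbers gave 152 other windows with at least 20 genes compared to set beside the 6 low-number ends. The share with a deletion level at least 2-fold below wild type was 9.68% at the end of A, 3.45% at B, 16.1% at C, 11.1% at D, 5.71% at E and 5.56% at F. Over the other windows it ran from 0 to 21.2%, with a median of 5.13% and an upper quartile of 7.92%, and 5 of them were as high as the end of C. For genes with an overexpression level at least 2-fold above wild type, the end of A had 16.1%, as 7 other windows did or exceeded, and the other 5 ends had 2.86% to 9.68%, where the upper quartile was 8.11%. Each of the 6 ends lay inside the range of the windows elsewhere. Over all 6 chromosomes together, deletion was at least 2-fold below wild type for 8.59% of genes numbered below 1000, as given above, and for 7.44% in the next window (16 of 215). Of the 8 windows after that, those starting at number 6000 (8.93%) and 8000 (9.05%) had larger shares than the low-number ends.

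**Figure D5:**
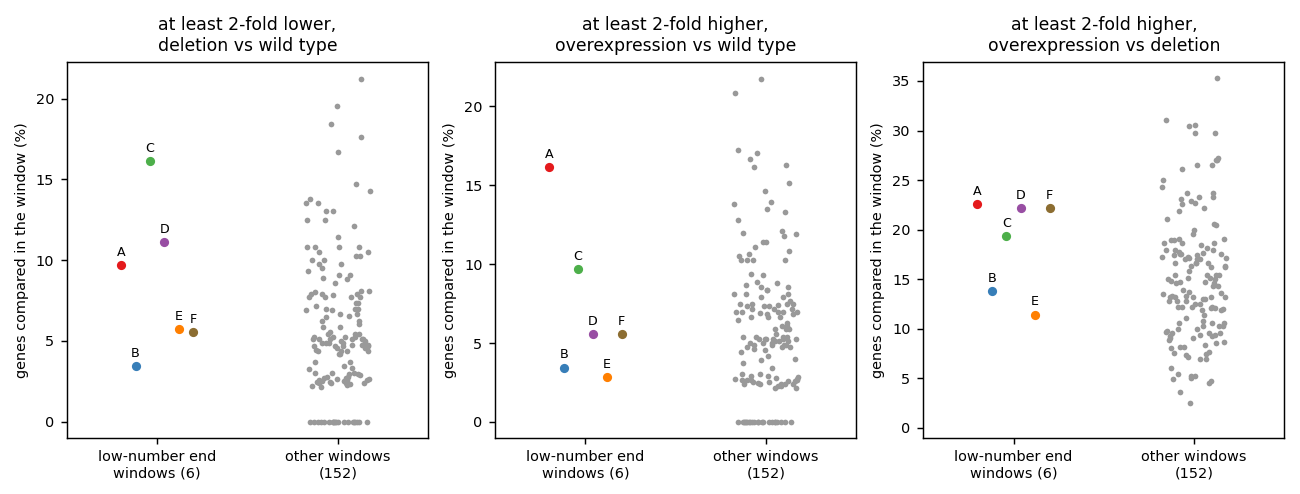
Share of genes compared that were past 2-fold in windows of 1000 identifier numbers, for the 6 low-number ends (coloured, with their chromosome letter) and 152 other windows (grey, spread sideways for legibility), in 3 comparisons. The low-number ends lie within the range of the other windows, with C high on the left and A high in the middle panel.

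In any of the 3 comparisons 49 of 198 members were at least 2-fold different (24.7%), against 21.0% of 5832 other genes, and 149 members were within 2-fold throughout. Counting error was small beside most of these differences: the interval of the plain ratio was wholly past 2-fold in 20 of 22 members called in deletion against wild type, 19 of 20 in overexpression against wild type and 46 of 48 in overexpression against deletion. How reads shared by near-identical copies were assigned, and whether strand was kept, was not stated in the labels or headers used here, so values of members that belong to gene families or overlap a gene on the other strand are uncertain.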

How the data were processed

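Total RNA libraries were made with a TruSeq kit from 1 µg of RNA, per the labels' protocols. The authors deposited RPKM values for 6448 identifiers in each of 3 libraries, per the file headers. TopHat2 2.1.1 and Cufflinks 2.2.1 are named without a role, per the submitters' processing notes, beside a mouse genome build. No yeast build, annotation or counting option is stated in the labels or headers used here. Low RPKM values lie on whole-read steps, from which library totals, coding lengths and reads were recovered with Python 3.11.15 and scipy 1.17.1. Within 0.01 of a whole read lay 100.0% of values above 0 in deletion and in wild type and 99.98% in overexpression. For some genes the length and reads are a fraction of the true ones, which widens intervals. The recovery was run on data simulated from its own lengths and totals, which cannot show whether those lengths and totals are right. RPKM limits precision where reads are few: the median member had 1908 reads in deletion, 2865 in overexpression and 1484 in wild type.

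Ratios were log2((x + 1)/(y + 1)), for the 6035 genes that reached 1 RPKM in any library, which understates the folds of weak genes; printed folds are plain RPKM ratios with exact conditional binomial intervals (95%). With 1 library per group no test was made and no set test was run. Members and position groups were chosen with earlier results of these data known. Named genes are the 2 highest and 2 lowest ratios per comparison among members at 10 RPKM or more in either library, the 2 highest mean levels and MHY1. Alternatives were pseudocounts of 0.1 and 5, other filters, 2 rescalings, limits of 500 and 2000 on the number, and each chromosome left out. Promoter and protein sequences were not used here.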

Additional observations from a re-analysis of the deposited data

How the results depend on the processing

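Of 181 values of the counts and medians under the alternatives, 160 stayed within 1.5 times of the reported count or within the order-statistic interval of the reported median. Centring, which is among the settings counted, shifts members and other genes alike. The differences of their median log2 ratios therefore could not move under it, and they are among the 160. Dropping the filter could not move the 2-fold counts either, since genes under 1 RPKM throughout cannot reach 2-fold with a pseudocount of 1. The intervals over genes were wide, from −0.60 to 0.33 for the wild-type difference in median level. The 160 is therefore a loose measure of stability. With a pseudocount of 0.1, the overexpression level of 22 members was at least 2-fold above wild type. With a pseudocount of 5, 9 were, 11 were lower in deletion than in wild type and 22 were higher in overexpression than in deletion; a larger pseudocount shrinks every ratio. The limit on the number changes how many genes are counted. Below 500, 2 members were higher and 9 lower in deletion than in wild type, 8 higher and 3 lower in overexpression than in wild type, and in overexpression 20 were higher and 4 lower than in deletion. There the median log2 ratio minus that of other genes was −0.057 for deletion against wild type and 0.15 for overexpression against deletion, and the level in overexpression was −0.49; the cause was not tested. Below 2000, 8 were higher and 33 lower in deletion than in wild type, 26 higher in overexpression than in wild type, and in overexpression 71 were higher and 18 lower than in deletion. Without chromosome A, 9 members were higher in overexpression than in wild type and 3 numbered below 200 were lower in deletion than in wild type. Without chromosome E, 3 were higher in deletion than in wild type. Both rescalings left the deletion counts at 5 and 17. Centring, the counts below number 200 and the comparison of named ratios were chosen after seeing the data. Of 115 values of named ratios past 2-fold, 114 stayed past it in the same direction. The exception was YALI0A00374g in deletion against wild type, at −0.36 with a pseudocount of 5. Most of these genes were named for the most extreme ratios in these data, so this count says little about robustness. No paired analysis was possible because there was a single library of each strain, and no replicate could be left out.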
